A study of Mus musculus with 8 samples.

Results

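The BCL2 family genes measured here were Mcl1, Bcl2, Bcl2l1, the 3 Bcl2a1 copies Bcl2a1a, Bcl2a1b and Bcl2a1d, Bax, Bak1, Bcl2l11 and Bid, which are 10 of the 55450 genes in the deposited count table. They were taken by gene symbol, in a choice made with earlier results of these data known. All 10 passed the filter on low counts and were tested. Proteins of this family decide whether the outer mitochondrial membrane is opened during apoptosis. MCL1, BCL2, BCL-XL (the product of Bcl2l1) and A1 (the product of the Bcl2a1 copies) hold the effectors BAX and BAK in check, while proteins that carry only the BH3 motif, such as BIM (from Bcl2l11) and BID, engage the protective members or the effectors. Neutrophils are short-lived cells, known for their dependence on MCL1, a protein that is itself turned over quickly, and for making little BCL2.

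RNA of sorted mouse neutrophils was sequenced in 8 libraries, 2 in each of 4 groups. The culture groups were neutrophils generated in vitro from naive bone marrow, and the tumour groups were neutrophils from mouse brain tumours for which the labels give SB28, a mouse glioma cell line, as the cell source. Each origin was sorted by FACS into a CD71+ and a CD71- fraction. CD71 is the transferrin receptor, encoded by Tfrc. The sources used here give no mouse strain, genotype, age, culture protocol or treatment, and the labels name samples, not animals or cultures, so the p-values measure the spread between samples, which may be technical.

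Bcl2a1 is present in the mouse genome as near-identical copies, so the reads of a transcript cannot always be assigned to 1 of them. The coding sequences of the 3 copies are each 516 bases long without the stop codon and differ at 12 positions. Bcl2a1a and Bcl2a1b differ at 11 positions (97.9% identity), Bcl2a1a and Bcl2a1d at 7 (98.6%) and Bcl2a1b and Bcl2a1d at 6 (98.8%). The first 120 coding bases are shown because they hold 7 of the 12 differing positions, which are in capitals. Read from the mm10 annotation, they lie in the coding exon at 9:88957051-88957170 (plus strand) for Bcl2a1a, 9:89199360-89199479 (plus strand) for Bcl2a1b and 9:88731600-88731719 (minus strand) for Bcl2a1d.
Bcl2a1a: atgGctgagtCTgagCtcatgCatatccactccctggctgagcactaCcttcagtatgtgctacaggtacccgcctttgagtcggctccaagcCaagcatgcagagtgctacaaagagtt
Bcl2a1b: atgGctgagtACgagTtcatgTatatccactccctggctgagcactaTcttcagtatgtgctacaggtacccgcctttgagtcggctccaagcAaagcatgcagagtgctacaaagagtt
Bcl2a1d: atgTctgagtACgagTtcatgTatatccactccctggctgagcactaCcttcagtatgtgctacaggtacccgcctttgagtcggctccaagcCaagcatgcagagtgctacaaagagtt
Positions are counted from 1 at the first base of the start codon. From Bcl2a1a to both other copies the stretch holds C11A, T12C, C16T and C22T. From Bcl2a1a to Bcl2a1b it also holds C48T and C94A, and from Bcl2a1a to Bcl2a1d it also holds G4T. A window of 100 transcript bases was found letter for letter in another copy for 43.5% of the windows of Bcl2a1a, 31.1% of Bcl2a1b and 54.7% of Bcl2a1d. Neither the read length nor the treatment of reads that match several places is given in the sources used here, so the copies are reported one by one and as their summed counts.

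The libraries held 9598959 to 22615813 counts. Levels are in CPM, counts per 1000000, on library sizes scaled by the trimmed mean of M values (TMM), whose factors ran from 0.602 to 1.49. Tfrc did not follow the sort labels at the transcript level. It was at 103 and 108 CPM in the tumour libraries labelled CD71+ against 187 and 145 CPM in those labelled CD71- (log2 fold change -0.65, SE 0.19, edgeR adjusted p = 0.0134), and at 116 and 115 against 131 and 94.3 CPM in culture (0.03, SE 0.19, adjusted p = 0.94). The groups are named by their labels, and every direction between the sort fractions rests on those labels. In each origin the CD71+ libraries also had a lower level of mature neutrophil markers and a higher level of macrophage markers on TMM scaling. The summed level of 15 neutrophil markers, none of them at 0, was 27692.2 to 30651.3 CPM in tumour CD71-, 14125.4 to 14545.2 in tumour CD71+, 9279.5 to 10157.4 in culture CD71- and 4065.6 to 5226.9 in culture CD71+. The summed level of 12 macrophage and monocyte markers was 778 to 824, 3485.5 to 3683.3, 666 to 714 and 1007 to 1175.9 CPM in the same order, with C1qa and Cd163 at 0 in both culture CD71- libraries. In bulk RNA, fewer cells of a type and less RNA per cell cannot be told apart.

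Measured per length of the gene, Mcl1 stood first and Bcl2 last of the 10 genes in all 4 groups. Mcl1 was at 241 CPM per kb of exon in culture CD71-, 186 in culture CD71+, 1405.5 in tumour CD71- and 866 in tumour CD71+, and took 55.6% to 72.1% of the summed per-kb level of the 10 genes in the 8 libraries. Bcl2 was at 0.28, 0.898, 0.767 and 2.17 CPM per kb in the same order of groups. In both tumour groups ranks 2 to 5 were held by Bcl2l1 (206 and 90.7 CPM per kb in CD71- and CD71+), Bcl2l11 (154 and 87.0), Bcl2a1a (92.2 and 76.8) and Bcl2a1d (57.7 and 54.7), whether the length was the union of a gene's exons or its longest transcript. In tumour CD71- the libraries of these neighbours did not overlap. In tumour CD71+ those of Bcl2l1 and Bcl2l11 overlapped, as did, on the exon length only, those of Bcl2l11 and Bcl2a1a. In culture most of the ranks between Mcl1 and Bcl2 changed with the definition of length. Exceptions were Bak1, Bcl2a1d, Bid and Bcl2a1b at ranks 6 to 9 in CD71-, and Bcl2a1a at rank 2 and Bax at rank 5 in CD71+. The Bcl2a1 copies were ranked one by one and their sum was not ranked. The ranks therefore do not place the transcripts of A1 as a whole against Bcl2l1 or Bcl2l11.

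**Figure D1:**
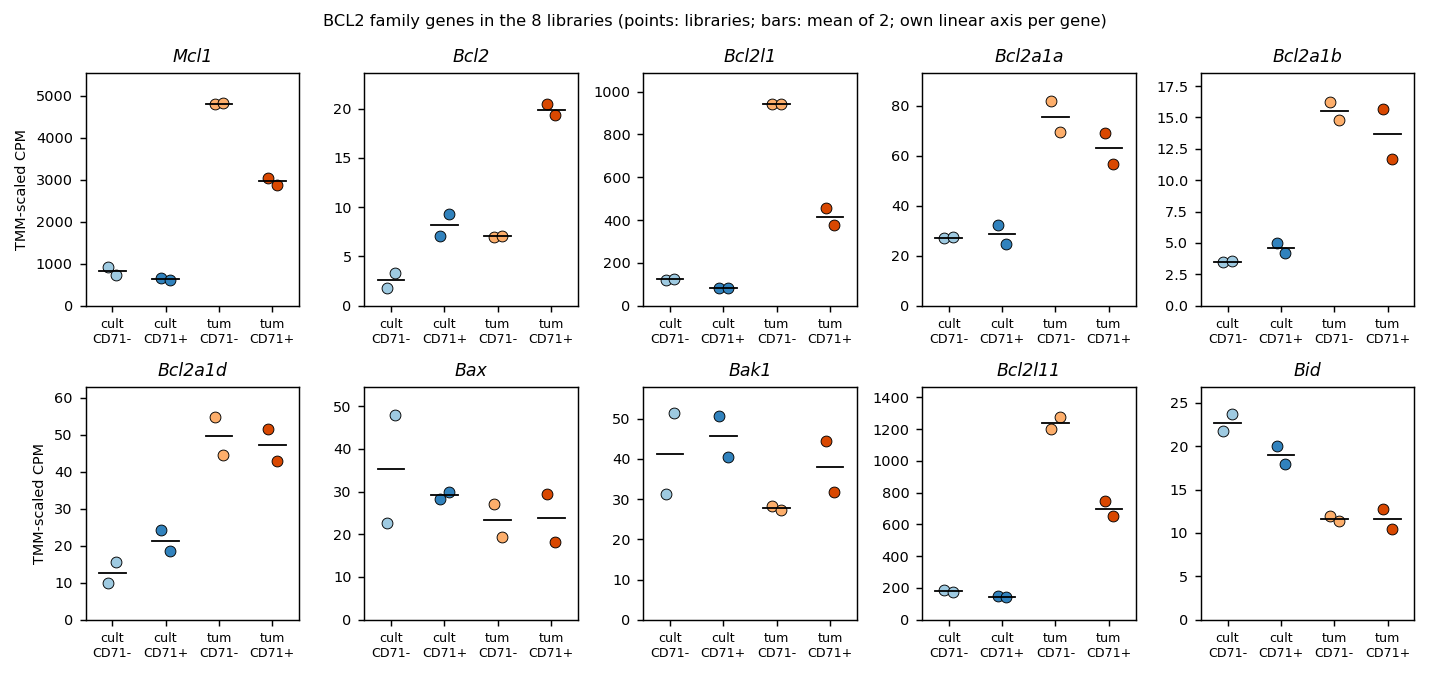
TMM-scaled CPM (vertical axis, linear, from 0, own range for each gene) of the 10 genes in the 8 libraries. Points are libraries, bars are means of 2 libraries, and the groups are culture (cult) and tumour (tum) in CD71- and CD71+. Mcl1, Bcl2l1 and Bcl2l11 share 1 pattern, with both tumour CD71- libraries highest, both tumour CD71+ libraries next and the 4 culture libraries lowest on this scale, while Bcl2 is highest in tumour CD71+.

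In the comparison of tumour with culture, the genes for MCL1, BCL-XL and BIM were higher in the tumour libraries of both sort fractions and passed the test on each of the 4 scalings tried, with fold changes of 4.65 to 7.66 on TMM scaling and smaller ones on the neutrophil marker scaling. The 3 Bcl2a1 copies and Bcl2 were also higher on TMM scaling, a direction that turned for Bcl2a1a and Bcl2 in both fractions, and for Bcl2a1b and Bcl2a1d in CD71+, when the libraries were scaled on the neutrophil markers. Bid was lower in the tumour on all 4 scalings. Bax and Bak1 did not pass the test. Of the 10 genes, 7 passed as higher and 1 as lower in CD71-, where 67.1% of all 15975 tested genes were called (30.3% higher and 36.8% lower). The same 7 and 1 passed in CD71+, where 57.9% were called (30.3% higher and 27.6% lower). The median log2 fold change of the 10 genes was 1.74 in CD71- beside -0.28 over all tested genes, and 1.21 in CD71+ beside -0.08. Most neutrophil markers were higher in the tumour as well. Of 15, 10 passed as higher and 1 as lower in CD71-, and 12 and 1 in CD71+. Of the 11 macrophage markers tested, 8 passed as higher in each fraction, with 1 as lower in CD71- and 0 in CD71+. Both comparisons come from 1 fit with the comparisons of the sort fractions below and share their libraries with them.

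Mcl1 (ENSMUSG00000038612.16, 3:95658788-95663176 in mm10, plus strand) was at 4790.2 and 4817.2 CPM in tumour CD71- against 921 and 729 in culture CD71-. It was at 3048.2 and 2870.1 CPM in tumour CD71+ against 667 and 607 in culture CD71+. The lowest tumour library, at 2870.1 CPM, was above the highest culture library, at 921. In CD71- the log2 fold change was 2.54 (SE 0.19, edgeR adjusted p = 3.93e-08; 5.82-fold) and it was 2.22 (SE 0.18, adjusted p = 1.96e-07; 4.65-fold) in CD71+. Relative to the median of all genes these were 2.82 and 2.30. Scaled on the neutrophil markers, which were themselves higher in the tumour, they were 0.96 and 0.58 and still passed (adjusted p = 0.000138 and 0.0141).

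Bcl2l1 (ENSMUSG00000007659.18, 2:152780668-152831728, minus strand), which encodes BCL-XL, had a larger tumour fold change on TMM scaling than the other 9 genes, although in CD71+ its lead over Bcl2l11 was within the SE, and on the neutrophil marker scaling Bid, Bax and Bak1 changed more, downwards. It was at 943 and 944 CPM in tumour CD71- against 120 and 127 in culture CD71-, and at 456 and 376 in tumour CD71+ against 84.4 and 80.8 in culture CD71+. The tumour and culture libraries did not overlap in either fraction. Its log2 fold change was 2.94 (SE 0.17, edgeR adjusted p = 4.74e-09; 7.66-fold) in CD71- and 2.33 (SE 0.17, adjusted p = 4.95e-08; 5.03-fold) in CD71+. On the neutrophil marker scaling the values were 1.35 and 0.69 (adjusted p = 1.1e-06 and 0.00439).

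Each Bcl2a1 copy, whose product is the A1 protein of myeloid and lymphoid cells, was higher in the tumour on TMM scaling; on the neutrophil marker scaling Bcl2a1a turned to -0.10 in CD71-, and the copies to -0.49, -0.06 and -0.49 (Bcl2a1a, Bcl2a1b and Bcl2a1d) in CD71+. Bcl2a1a (ENSMUSG00000102037.1, 9:88956900-88962419) was at 81.7 and 69.4 CPM in tumour CD71-, 69.2 and 56.6 in tumour CD71+, 26.9 and 27.3 in culture CD71- and 32.4 and 24.8 in culture CD71+. Bcl2a1d (ENSMUSG00000099974.1, 9:88723285-88731914) was at 54.9 and 44.6, 51.6 and 42.8, 9.95 and 15.5, and 24.2 and 18.6 CPM in the same order. Both genes had every tumour library above every culture library. Bcl2a1b (ENSMUSG00000089929.1, 9:89199209-89207827), the least counted copy, was at 16.2 and 14.8, 15.7 and 11.7, 3.49 and 3.54, and 5.03 and 4.18 CPM. Its exons share 401 bases, 49.1% of their length, with Gm29094 on the same strand, which held 2 counts in all 8 libraries together. How reads in the shared bases were treated is not given in the sources used here, so Bcl2a1b may be undercounted. The summed copies changed by 1.70 (SE 0.19, edgeR adjusted p = 3.41e-06; 3.25-fold) in CD71- and 1.18 (SE 0.19, adjusted p = 0.000115; 2.27-fold) in CD71+. The single copies ran from 1.48 to 2.14 in CD71- and from 1.13 to 1.57 in CD71+, all past the threshold on TMM scaling. With total counts Bcl2a1d no longer passed in CD71+ (0.46, adjusted p = 0.078). On the neutrophil markers no copy passed in either fraction, and Bcl2a1b and Bcl2a1d in CD71- were at 0.56 and 0.39 (adjusted p = 0.184 and 0.218). On the neutrophil marker scaling the sum was 0.12 and -0.45 (adjusted p = 0.649 and 0.0738).

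The share of the copies' counts assigned to Bcl2a1a was 66.7% and 58.9% in culture CD71-, 52.6% and 52.1% in culture CD71+, 53.5% and 53.9% in tumour CD71- and 50.7% and 50.9% in tumour CD71+. It was highest in the 2 culture CD71- libraries. Bcl2a1d moved the opposite way, from 24.6% and 33.5% in culture CD71- to between 34.6% and 39.3% in the other 6 libraries. How far these shares depend on reads that fit several copies was not tested.

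Bcl2 (ENSMUSG00000057329.7, 1:106538178-106714274, minus strand), the family's founding protective member, was the least expressed of the 10 genes per length. It was at 6.98 and 7.07 CPM (50 and 51 counts) in tumour CD71- against 1.78 and 3.35 (30 and 37 counts) in culture CD71-, and at 20.5 and 19.3 CPM in tumour CD71+ against 7.10 and 9.33 in culture CD71+. The libraries did not overlap in either fraction. Its log2 fold change was 1.49 (SE 0.35, edgeR adjusted p = 0.00188) in CD71- and 1.28 (SE 0.29, adjusted p = 0.00208) in CD71+. This call depended on the scaling. With total counts it was 0.57 and 0.59 (adjusted p = 0.156 and 0.0862), on the neutrophil markers it was -0.11 and -0.39, and without culture CD71+ replicate 1 it was lost in CD71+ (adjusted p = 0.0535).

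Among the genes whose products promote apoptosis, Bcl2l11 (ENSMUSG00000027381.16, 2:128126038-128162547, plus strand), which encodes the BH3-only protein BIM, moved with Mcl1 and Bcl2l1. It was at 1201.3 and 1274.7 CPM in tumour CD71- against 186 and 174 in culture CD71-, and at 745 and 652 in tumour CD71+ against 149 and 140 in culture CD71+. The libraries did not overlap. Its log2 fold change was 2.78 (SE 0.17, edgeR adjusted p = 6.9e-09; 6.89-fold) in CD71- and 2.28 (SE 0.17, adjusted p = 5.55e-08; 4.84-fold) in CD71+, and on the neutrophil marker scaling 1.20 and 0.63 (adjusted p = 5.33e-06 and 0.00682).

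Bid (ENSMUSG00000004446.12, 6:120891930-120916853, minus strand), whose product links death receptors to the mitochondrion once cleaved by caspase-8, was the member that was lower in the tumour. It was at 11.9 and 11.4 CPM in tumour CD71- against 21.7 and 23.7 in culture CD71-, and at 12.8 and 10.5 in tumour CD71+ against 20.0 and 17.9 in culture CD71+. The 4 tumour libraries all lay below the 4 culture libraries. The log2 fold change was -0.97 (SE 0.23, edgeR adjusted p = 0.0021) in CD71- and -0.70 (SE 0.22, adjusted p = 0.0154) in CD71+. Leaving out replicate 1 of culture CD71+ (adjusted p = 0.109) ended the second call, and so did leaving out replicate 2 of tumour CD71+ (0.0713). Of the exon bases of Bid, 17.7% overlap Bcl2l13 on the opposite strand, and up to 18.2% of those of Bak1 overlap Ggnbp1 likewise. On the same strand, 12.2% of those of Bax overlap Gm45808, which held 1 count in all libraries together. The sources used here do not give the strand setting of the counting.

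The effector genes showed no called difference between tumour and culture. Bax (ENSMUSG00000003873.11, 7:45461697-45466898, minus strand) was at 27.1 and 19.4 CPM in tumour CD71-, 29.4 and 18.1 in tumour CD71+, 22.7 and 48.0 in culture CD71- and 28.3 and 29.9 in culture CD71+. Its 2 culture CD71- libraries lay further apart than any of its group means, and the log2 fold change was -0.60 (SE 0.34, edgeR adjusted p = 0.137) in CD71- and -0.29 (SE 0.33, adjusted p = 0.468) in CD71+. Those 2 libraries also differed in the share of counts from mitochondrial genes, 7.09% and 12%, against 0.202% to 2.17% in the other 6 libraries; its part in the spread was not tested. Bak1 (ENSMUSG00000057789.14, 17:27019810-27029009, minus strand) was at 28.3 and 27.2 CPM in tumour CD71-, 44.4 and 31.7 in tumour CD71+, 31.2 and 51.4 in culture CD71- and 50.8 and 40.6 in culture CD71+. Its log2 fold change was -0.57 (SE 0.25, adjusted p = 0.0591) and -0.26 (SE 0.24, adjusted p = 0.369). Both genes passed as lower in the tumour in both fractions when scaled by total counts or on the neutrophil markers, for instance Bak1 in CD71- at -1.49 (adjusted p = 4.24e-05) with total counts.

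**Figure D2:**
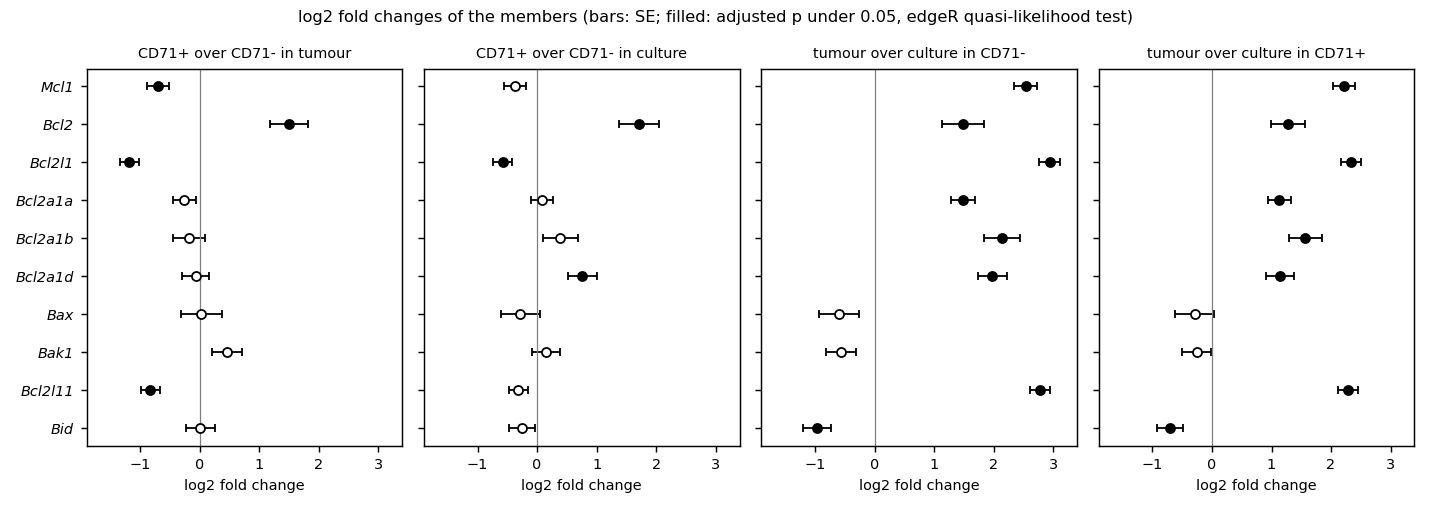
Log2 fold changes on TMM scaling (horizontal axis) of the 10 genes (vertical axis) in 4 comparisons, with bars of 1 SE from edgeR; filled points passed an adjusted p of 0.05. In both comparisons of tumour with culture 7 genes lie to the right and passed, and Bid lies to the left and passed. Bcl2 passed as higher in CD71+ in both origins. On the neutrophil marker scaling the tumour over culture values of Bcl2 and Bcl2a1a cross zero in both fractions. Those of Bcl2a1b and Bcl2a1d cross zero in CD71+ only.

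Within the tumour, the CD71+ libraries had less transcript of Bcl2l1, Bcl2l11 and Mcl1 and more of Bcl2 than the CD71- libraries on TMM scaling; on the neutrophil marker scaling Mcl1 and Bcl2l11 turned to 0.32 and 0.20, and of the 4 genes that passed Bcl2 alone kept both its direction and its call on all 4 scalings. Of the 10 genes 1 passed as higher and 3 as lower, where 43.5% of the tested genes were called (26.2% higher and 17.3% lower). The median of the 10 genes was -0.12 beside 0.13 over all tested genes.

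Bcl2l1 fell from 943 and 944 CPM in tumour CD71- to 456 and 376 in tumour CD71+, a log2 fold change of -1.18 (SE 0.16, edgeR adjusted p = 0.000121; 2.27-fold lower). Bcl2l11 fell from 1201.3 and 1274.7 to 745 and 652 CPM, by -0.83 (SE 0.16, adjusted p = 0.00122; 1.77-fold lower), and its sign turned on the neutrophil marker scaling. Mcl1 fell from 4790.2 and 4817.2 to 3048.2 and 2870.1 CPM, by -0.70 (SE 0.18, adjusted p = 0.00608; 1.62-fold lower), and its sign turned likewise. In all 3 genes both CD71+ libraries lay below both CD71- libraries. Relative to the median of all genes, a quantity in which the scaling largely cancels, the 3 values were -1.31, -0.96 and -0.83. With total counts Bcl2l1 passed at -0.63 (adjusted p = 0.00596) whereas Bcl2l11 (-0.27, adjusted p = 0.212) and Mcl1 (-0.14, adjusted p = 0.575) did not. On the neutrophil markers Bcl2l1 was at -0.16 (adjusted p = 0.546), and without tumour CD71+ replicate 2 Mcl1 was at -0.67 (adjusted p = 0.0585). The neutrophil markers fell in the same libraries, with 11 of 15 passing as lower and none as higher, and the macrophage markers rose, with 10 of the 11 tested passing.

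Bcl2 rose from 6.98 and 7.07 CPM (50 and 51 counts) in tumour CD71- to 20.5 and 19.3 CPM (213 and 205 counts) in tumour CD71+. The log2 fold change was 1.50 (SE 0.32, edgeR adjusted p = 0.00208; 2.83-fold higher), and it was between 1.28 and 2.52 on the other 3 scalings. Markers of other cells rose in the same libraries. The summed level of 10 lymphocyte markers was 7.07 to 7.82 CPM in tumour CD71- and 40.1 to 55.8 in tumour CD71+, with Ms4a1 at 0 in the former, and all 5 that were tested passed as higher. That of 8 microglia markers was 98.6 to 137 and 979 to 1420.5 CPM, with all 8 passing and none at 0 in either group. Their part in the change of Bcl2 was not tested.

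The other 6 genes did not pass between the sort fractions of the tumour. The summed Bcl2a1 copies were at 153 and 129 CPM in tumour CD71- and 137 and 111 in tumour CD71+, and the groups overlapped (log2 fold change -0.19, SE 0.19, edgeR adjusted p = 0.442; it turned to 0.37 with total counts and 0.83 on the neutrophil markers). Bak1 was at 0.46 (SE 0.25, adjusted p = 0.158). Bax and Bid were at 0.03 (SE 0.34) and 0.01 (SE 0.24), with overlapping libraries.

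In culture, Bcl2 was again higher in CD71+, Bcl2l1 was lower and Bcl2a1d was higher on TMM scaling; on the neutrophil markers Bcl2l1 turned to 0.50. Of the 10 genes 2 passed as higher and 1 as lower, where 16.2% of the tested genes were called (7.88% higher and 8.36% lower), and their median was -0.09 beside 0.03 over all tested genes.

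Bcl2 rose from 1.78 and 3.35 CPM (30 and 37 counts) in culture CD71- to 7.10 and 9.33 CPM (233 and 270 counts) in culture CD71+. The log2 fold change was 1.71 (SE 0.33, edgeR adjusted p = 0.0031; 3.28-fold higher) and the groups did not overlap; it was between 1.67 and 2.80 on the other 3 scalings. Lymphocyte markers summed to 5.80 to 6.89 CPM in culture CD71- and 18.7 to 18.9 in culture CD71+, with Cd4 at 0 in both CD71- libraries, and 1 of the 5 tested passed as higher. Macrophage markers passed as higher for 8 of the 11 tested. Their part in the change of Bcl2 was not tested.

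Bcl2l1 fell from 120 and 127 CPM in culture CD71- to 84.4 and 80.8 in culture CD71+, by -0.58 (SE 0.16, edgeR adjusted p = 0.027; 1.49-fold lower), and turned to 0.50 (adjusted p = 0.0407) on the neutrophil markers. The call was lost with total counts (-0.26, adjusted p = 0.274), without the filter (adjusted p = 0.0509) and without culture CD71+ replicate 1 or 2 (adjusted p = 0.183 and 0.228). Bcl2a1d rose from 9.95 and 15.5 CPM to 24.2 and 18.6, by 0.76 (SE 0.24, adjusted p = 0.0449). That call was lost in 5 of the 8 fits that left out 1 library, with DESeq2 size factors (adjusted p = 0.056) and with only the 4 culture libraries (adjusted p = 0.11), and the summed copies did not pass (0.34, SE 0.19, adjusted p = 0.249). Mcl1, the most abundant of the genes per length, was at 921 and 729 CPM in culture CD71- and 667 and 607 in culture CD71+; the groups did not overlap, and the log2 fold change of -0.37 (SE 0.18) did not pass (adjusted p = 0.168). Bcl2l11 was at -0.32 (SE 0.16, adjusted p = 0.198), Bid at -0.26 (SE 0.22), Bax at -0.28 (SE 0.33) and Bak1 at 0.15, none of them passing.

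The difference between the tumour and the culture sort effects was tested directly, and 0 of the 10 genes passed (edgeR), where 15.5% of the tested genes were called (10.8% higher and 4.71% lower). At an unadjusted p under 0.05 the count was 3, namely Bcl2l1, Bcl2a1d and Bcl2l11. The share of all genes at that unadjusted threshold is not given here. DESeq2's Wald test called the same 3 as lower, where it called 2778 of all 15975 tested genes, 1388 of them lower. The difference was -0.61 (SE 0.23, edgeR adjusted p = 0.0858) for Bcl2l1, -0.84 (SE 0.34, adjusted p = 0.104) for Bcl2a1d and -0.51 (SE 0.23, adjusted p = 0.142) for Bcl2l11. With DESeq2's Wald test these were -0.78 (adjusted p = 0.00958), -1.01 (adjusted p = 0.0442) and -0.68 (adjusted p = 0.0198). For Bcl2 the difference was -0.21 (SE 0.45, edgeR adjusted p = 0.798), and its sort effects of 1.50 in tumour and 1.71 in culture lay within that error. For Mcl1 it was -0.33 (SE 0.25, adjusted p = 0.401).

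Ratios of 2 genes within a library do not depend on how libraries are scaled. The ratio of Mcl1 to Bcl2l11 counts, a protective gene over a BH3-only gene, was 4.95 and 4.20 in culture CD71-, 4.49 and 4.34 in culture CD71+, 3.99 and 3.78 in tumour CD71- and 4.09 and 4.40 in tumour CD71+, while the Mcl1 level itself spanned 607 to 4817.2 CPM. The ratio of Mcl1 to Bax, the effector, was 15.2 to 40.6 in the 4 culture libraries and 104 to 248 in the 4 tumour libraries, with no overlap. Bcl2l1 per Bax was 2.63 to 5.27 in culture, 34.8 and 48.6 in tumour CD71- and 15.5 and 20.8 in tumour CD71+. Bcl2l11 per Bax also rose, from 3.61 to 8.19 in culture to 25.3 to 65.7 in the tumour. Mcl1, Bcl2l1 and Bcl2l11 thus all increased against Bax. Bcl2 per Bax overlapped between the origins, at 0.0698 to 0.312 in culture and 0.258 to 1.07 in the tumour. Bax and Bak1 together took 6.82% to 13.8% of the summed per-kb level of the 10 genes in culture and 1.21% to 2.88% in the tumour. Bcl2 counts per 1000 Mcl1 counts were 1.93 and 4.60 in culture CD71-, 10.6 and 15.4 in culture CD71+, 1.46 and 1.47 in tumour CD71- and 6.72 in each tumour CD71+ library. In both origins the CD71+ libraries thus had more Bcl2 per Mcl1 than the CD71- libraries, with no overlap.

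**Figure D3:**
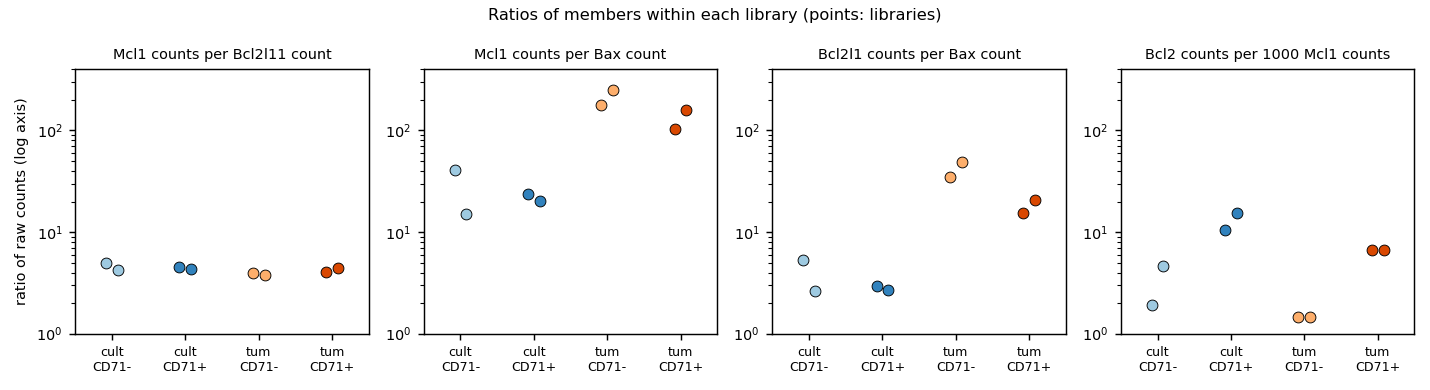
Ratios of raw counts of 2 genes within each library (log axis, points are libraries, 2 in each group; cult, culture; tum, tumour). Mcl1 per Bcl2l11 stays between 3.78 and 4.95 in all 8 libraries, Mcl1 and Bcl2l1 per Bax are higher in all 4 tumour libraries than in all 4 culture libraries, and Bcl2 per 1000 Mcl1 is higher in CD71+ than in CD71- of the same origin.

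The choice of scaling shifted all genes of a comparison together. Against TMM, the median log2 fold change between the sort fractions of the tumour shifted by -0.20 with DESeq2 size factors, 0.56 with total counts and 1.01 on the neutrophil markers, and the share of called genes that were higher went from 60.2% to 47.3%, 93.3% and 99.7%. For the sort fractions of the culture the shifts were -0.03, 0.31 and 1.08, and the share went from 48.5% to 42.3%, 80.9% and 98.5%. For tumour over culture the shifts were 0.24, -0.93 and -1.58 in CD71- and 0.07, -0.68 and -1.65 in CD71+, where the share went from 45.1% to 52.1%, 25.3% and 16.2%, and from 52.3% to 55.5%, 29.3% and 15.2%. For the difference of the sort effects it went from 69.6% to 52.1%, 87.4% and 66.6%.

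**Figure D4:**
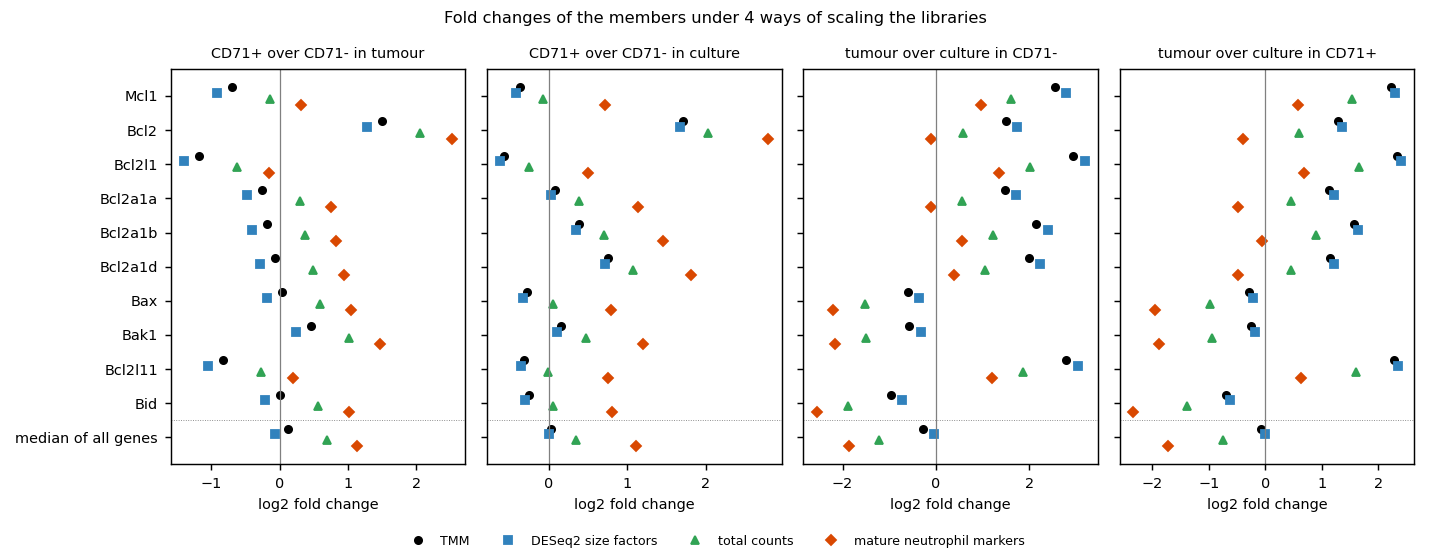
Log2 fold changes (horizontal axis, own range for each comparison) of the 10 genes and the median of all tested genes (bottom row) under 4 ways of scaling the libraries, marked by symbol. All genes of a comparison shift together: Mcl1 between the sort fractions of the tumour goes from -0.70 (TMM) to 0.32 (neutrophil markers), while Mcl1, Bcl2l1 and Bcl2l11 stay above zero in both comparisons of tumour with culture under all 4.

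Other genes of the pathway were taken from 5 lists of relatives and partners of the 10 genes, with 53 tested genes in all. Of these, 81.1% were called for tumour over culture in CD71- and 60.4% in CD71+, beside 67.1% and 57.9% of all tested genes. Between the sort fractions 43.4% were called in tumour and 15.1% in culture, beside 43.5% and 16.2%. Of 16 other BCL2 family genes, 11 were tested. In tumour over culture 3 passed as higher and 6 as lower in CD71- (median -1.09), and 2 and 6 in CD71+ (median -0.83). Pmaip1, whose product NOXA is a BH3-only partner of MCL1, was at 198 and 191 CPM in tumour CD71-, 139 and 127 in tumour CD71+ and 24.6 to 35.1 in the 4 culture libraries. Its log2 fold change was 2.71 (SE 0.19, edgeR adjusted p = 3.08e-08) in CD71- and 1.97 (SE 0.19, adjusted p = 7.53e-07) in CD71+; on the neutrophil markers these were 1.11 and 0.32, the first of which passed. Bcl2l2, which encodes the protective BCL-w, went the other way, with -2.20 and -1.51, and was lower on all 4 scalings. The mitophagy receptor genes Bnip3 (-1.34 and -1.63) and Bnip3l (-1.25 and -1.46) were lower too on all 4. Between the sort fractions of the tumour 2 passed as higher, Bcl2l2 (1.67, adjusted p = 0.00391) and the BH3-only gene Bmf (0.62, adjusted p = 0.0494), and 3 as lower, Pmaip1 (-0.55), Bnip3 (-0.53) and Bnip3l (-0.55), whose values turned to 0.01, 0.02 and 0.01 with total counts. In culture 1 passed, Bcl2l2 (0.98, adjusted p = 0.0446).

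Of the 14 genes of the apoptosome, the caspases and their inhibitors, 4 passed as higher and 7 as lower in the tumour in CD71-, and 2 and 5 in CD71+. Of all tested genes, 30.3% passed as higher and 36.8% as lower in CD71-, and 30.3% and 27.6% in CD71+. Birc3, which encodes the inhibitor cIAP2, was at 1309.7 and 1375.8 CPM in tumour CD71- against 253 and 186 in culture CD71- (2.61, SE 0.19, edgeR adjusted p = 3.18e-08), and rose by 2.05 in CD71+. Casp6, an executioner caspase, was at 2.37 and 2.91 CPM in tumour CD71- against 89.5 and 93.7 in culture CD71- (-5.11, SE 0.25, adjusted p = 7.28e-10), and at 7.31 and 7.53 against 57.1 and 45.0 CPM in CD71+ (-2.78). It was lower in the tumour on all 4 scalings. Casp9, the initiator caspase of the apoptosome, was lower by -1.41 and -1.91. Between the sort fractions 1 passed as higher and 3 as lower in the tumour, and 1 and 1 in culture. Of all tested genes, 26.2% passed as higher and 17.3% as lower there in the tumour, and 7.88% and 8.36% in culture. These shares of all tested genes are also the background for the TMM counts of the lists that follow. For list counts on other scalings, the calls among all genes are given beside them.

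Of the 10 genes of the death receptor arm, 8 passed as higher and 2 as lower in the tumour in CD71-, and 5 and 1 in CD71+. Cflar, which encodes the caspase-8 inhibitor FLIP, was higher by 3.08 (edgeR adjusted p = 2.54e-09) in CD71- and 2.38 in CD71+, and the TNF receptor gene Tnfrsf1b by 3.55 and 2.09, each on all 4 scalings. Fasl was at 26.8 and 21.2 CPM in tumour CD71- and 8.85 and 10.4 in tumour CD71+, and at no more than 0.178 CPM in any culture library. Between the sort fractions of the tumour 1 gene passed as higher and 5 as lower, with Fas at -1.11 (adjusted p = 0.00027); in culture 1 and 1 passed, with Fas at -1.08 (adjusted p = 0.000856). On the neutrophil markers these values of Fas were -0.09 and 0.01.

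Of 8 genes for the turnover of the MCL1 protein, 7 were tested, and 2 passed as higher and 1 as lower in the tumour in CD71-, and 1 and 1 in CD71+. Usp9x, whose product removes ubiquitin from MCL1, was at 0.67 (edgeR adjusted p = 0.00236) in CD71-. Btrc, part of a ubiquitin ligase, was at -1.17 in CD71- and -0.90 in CD71+. With total counts 0 genes of this list passed as higher and 4 as lower in each fraction. Of all 15975 tested genes, 2994 passed there as higher and 8840 as lower in CD71-, and 3289 and 7949 in CD71+. Between the sort fractions 1 gene passed in each origin, the kinase gene Gsk3a, at -0.89 in tumour and -0.72 in culture; it turned to 0.12 and 0.34 on the neutrophil markers.

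Of 11 transcription factor genes known to act on members of the family, 8 passed as higher and 2 as lower in the tumour in CD71-, and 7 and 2 in CD71+. Nfkb1 was higher by 3.34 and 2.44 and Ddit3, which encodes CHOP, by 3.83 and 3.11, each on all 4 scalings, and Trp53 was lower by -1.27 and -0.89. Between the sort fractions of the tumour 7 passed as lower and none as higher. With total counts 4 passed as lower and 2 as higher, where 491 of all 15975 tested genes passed as lower and 6787 as higher. Foxo3, a factor known to act on Bcl2l11, was at 528 and 507 CPM in tumour CD71- and 258 and 248 in tumour CD71+ (-1.03, SE 0.15, edgeR adjusted p = 0.000217), and at 218 and 220 in culture CD71- and 207 and 189 in culture CD71+. The tumour CD71- libraries stood above the other 6, as they also did for other genes of this list, among them Nfkb1, Ddit3 and Cebpb. On the neutrophil markers none of the genes of these 5 lists passed as lower between the sort fractions of either origin. Of all 15975 tested genes, 28 passed there as lower in tumour and 160 in culture. For tumour over culture on this scaling, the death receptor arm had 4 passing as higher and 5 as lower in CD71- and 3 and 6 in CD71+. The transcription factors had 5 and 3, and 4 and 4. Among all 15975 tested genes these counts were 2015 and 10407 in CD71-, and 1980 and 11075 in CD71+.

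The 250 bases before the first RefSeq start of Bcl2l11 (GRCm38.p6, chr2:128125788-128126037, plus strand) are shown because the gene changed with Mcl1 and Bcl2l1 and because they hold a match to the FOXO motif, in capitals.
Bcl2l11: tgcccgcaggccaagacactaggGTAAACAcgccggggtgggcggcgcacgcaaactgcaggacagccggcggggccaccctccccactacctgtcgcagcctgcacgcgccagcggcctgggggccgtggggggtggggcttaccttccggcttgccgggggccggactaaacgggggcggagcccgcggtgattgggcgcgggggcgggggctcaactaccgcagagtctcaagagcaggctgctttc
The match begins at position -227 from the start site. The motifs searched on both strands were ACGTG (hypoxia response element core), TTCNNNGAA (STAT), GGGANNNNCC (NF-kB), TGTTTAC (FOXO), TTGCNNAA (C/EBP) and TGACGTCA (cAMP response element), in windows from 250 bases before to 50 after each start. Of 32851 RefSeq promoters, 19.6%, 8.3%, 20.7%, 3.65%, 10.8% and 1.79% held them. Beside this match, a second Bcl2l11 window, Bcl2a1b and Bak1 held an NF-kB match each, Bax held overlapping ACGTG matches and Bid a C/EBP match, and no match was found in the windows of Mcl1, Bcl2, Bcl2l1, Bcl2a1a and Bcl2a1d. A match is a description of letters, not of binding.

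The genes most like Mcl1 over the 8 libraries, by Pearson correlation of log2(CPM + 0.5) among 9759 genes with a mean of at least 5 CPM, were Gabpb1 (0.9997), Ddx3x (0.9994) and Erbin (0.9993). For Bcl2l11 they were Fosl2 (0.9994), Antxr2 (0.9988) and Lypd6b (0.9988), and for the summed Bcl2a1 copies Agpat4 (0.9965), Surf4 (0.9957) and Tmem39a (0.9918). The libraries fall into tumour and culture, so that 1955, 1965 and 1537 genes had a correlation over 0.9 with Mcl1, Bcl2l11 and the Bcl2a1 sum. These values are a description of 8 libraries that share scaling and origin.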

How the data were processed

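Per the labels' protocols, a Zymo Microprep kit gave the RNA, and an Illumina kit for stranded total RNA with Ribo-Zero Plus depletion of ribosomal RNA gave the libraries. The deposited values were raw counts per gene. FastQC, cutadapt, STAR, featureCounts and DESeq2, and the genome build mm10, are named per the submitters' processing notes; versions, the strand setting and the treatment of reads with several matches are not given in the sources used here. All 55450 gene IDs were found in GENCODE M21, which gave positions and exon lengths; promoters came from RefSeq.

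The 8 libraries, at 9598959 to 22615813 counts, were fitted in 1 model of 4 group means with edgeR 4.0.16 in R 4.3.3 (filterByExpr, TMM, robust quasi-likelihood test, 4 residual degrees of freedom, common biological coefficient of variation 0.19), with Benjamini-Hochberg adjustment over 15975 genes and a threshold of 0.05. SE is the absolute log2 fold change over the square root of F. CPM used TMM-scaled library sizes. A floor of 3 counts was 0.0915 to 0.419 CPM; SDs cover counting and sample error together. DESeq2 1.42.0 was an alternative. The fit was tested on simulated counts. No 2 libraries of a group agreed within sampling noise (chi-square per degree of freedom 8.34 to 47.3).

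The genes and lists were chosen with earlier results of these data known. From each list, up to 3 rises and 3 falls in a comparison were eligible to be named, by size of change, among genes that passed with a mean of at least 5 CPM. The longest transcript as length was added after seeing the data.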

Additional observations from a re-analysis of the deposited data

Results flagged for a closer look

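The difference in sort effect between tumour and culture passed edgeR's test for 0 of the 10 genes and for 2 genes as higher and 6 as lower among the 53 tested genes of the surrounding lists, a share of 15.1% beside 15.5% of all tested genes. The CD71+ over CD71- log2 fold change in tumour minus that in culture was 2.33 for Casp6 (edgeR adjusted p = 0.000686), whose own effects were 1.49 and -0.84 (the latter 0.22 on the neutrophil markers), and 1.93 for Fadd (adjusted p = 0.0383), at 0.558 and 1.66 CPM in tumour CD71- and 3.95 to 8.81 CPM in the other 6 libraries. It was -1.46 for Tnfrsf1b (adjusted p = 0.00194), -0.92 for Tnfrsf1a (0.0216) and -0.70 for Cflar (0.048) of the death receptor arm. Of the transcription factors it was -1.22 for Cebpb (edgeR adjusted p = 0.00708), -0.90 for Nfkb1 (0.0192) and -0.89 for Foxo3 (0.0144).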

How the results depend on the processing

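Of 847 recomputed values of the 10 genes and the Bcl2a1 sum, 746 kept their direction and side of the threshold. Another 48 changed sign and were counted as such whether or not they passed. Of those that kept their sign, 29 newly passed and 24 no longer passed. Sign changes on the neutrophil markers were, between the tumour sort fractions, Mcl1 0.32, Bcl2l11 0.20, Bcl2a1a 0.75, Bcl2a1b 0.83, Bcl2a1d 0.94 and the sum 0.83; in culture Mcl1 0.71, Bcl2l1 0.50, Bcl2l11 0.76, Bax 0.79 and Bid 0.81; for tumour over culture Bcl2 -0.11 and Bcl2a1a -0.10 in CD71-, and Bcl2 -0.39, Bcl2a1a -0.49, Bcl2a1b -0.06, Bcl2a1d -0.49 and the sum -0.45 in CD71+. With total counts they were, in tumour, Bcl2a1a 0.30, Bcl2a1b 0.37, Bcl2a1d 0.49 and the sum 0.37; in culture Bax 0.05 and Bid 0.05; for the difference Bcl2 0.03. With DESeq2 size factors and with its Wald test Bax was -0.19 and Bid -0.21 in tumour. The shifts of the median over all genes under these scalings are given above. Why the scalings differ was not tested.

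The number of members passing as higher and lower between the tumour sort fractions was 1 and 3 on TMM scaling. It went to 2 and 1 with total counts and 6 and 0 on the neutrophil markers. Of all 15975 tested genes, 4182 passed there as higher and 2769 as lower on TMM scaling. With total counts these were 6787 and 491, and on the neutrophil markers 9138 and 28. In culture the members went from 2 and 1 to 1 higher with DESeq2 size factors and with only the 4 libraries compared. They went to 0 lower with total counts and without the filter, and to 9 and 0 on the neutrophil markers. Calls among all genes there went from 1259 and 1336 to 1161 and 1581 with DESeq2 size factors and 2617 and 618 with total counts. On the neutrophil markers they were 10406 and 160. They were 1638 and 1300 of 29244 genes without the filter, and 1128 and 1200 of 15115 with only the 4 libraries. For the difference the members went from 0 lower to 1 with DESeq2 size factors and 3 with DESeq2's Wald test. Lower calls among all genes went from 752 to 1212 and 1388 in the same order. For tumour over culture the members went from 7 and 1 to 3 and 3 on the neutrophil markers in both fractions. With total counts they went to 6 and 3 (CD71-) and 5 and 3 (CD71+). There Bcl2 in both fractions and Bcl2a1d in CD71+ no longer passed. Without the filter the members went to 3 lower in CD71-. In CD71- calls among all genes were 4837 and 5886 on TMM scaling. They went to 2994 and 8840 with total counts and 2015 and 10407 on the neutrophil markers. In CD71+ they went from 4836 and 4409 to 3289 and 7949, and 1980 and 11075. Without the filter they were 4937 and 6194 of 29244 genes in CD71-.

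Leaving out 1 library at a time, the values that changed sign ran from -0.41 to 0.00 (Bcl2a1b), -0.33 to 0.04 (Bcl2a1d), -0.37 to 0.33 (Bax) and -0.14 to 0.13 (Bid) in tumour, from -0.11 to 0.27 (Bcl2a1a), -0.71 to 0.36 (Bax) and -0.15 to 0.56 (Bak1) in culture, from -0.71 to 0.19 (Bcl2), -0.34 to 0.73 (Bax) and -0.10 to 0.60 (Bak1) for the difference, and from -1.06 to 0.01 (Bax) for tumour over culture in CD71-. Each of these fits left a group with 1 library, so counts of members passing in them are not given. The calls that were lost are given with their genes above.

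With a replicate block within each origin, the counts of members were 1 higher and 3 lower in tumour, 2 and 1 in culture and 0 for the difference, as without it, and 7235, 3213 and 3165 of all genes were called against 6951, 2595 and 2470. The labels state no pairing, and the numbers were not taken as pairs. Same-numbered libraries correlated in their deviations by 0.0716 in tumour and 0.012 in culture. These values cannot show whether same-numbered fractions came from the same tumour or culture. With 2 libraries a group, 4 residual degrees of freedom limit what can be called, and the 30 to 51 counts of Bcl2 in the CD71- libraries limit its precision.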
